A study of Mus musculus with 2 samples.

Results

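The cluster histone genes of the mouse encode the bulk of the protein around which DNA is wound. They were taken here as all genes whose symbol starts with Hist1h, Hist2h, Hist3h or Hist4h and which have a protein-coding transcript in the annotation, 67 of the 55536 Ensembl genes measured. By the type named in the symbol, 6 encode the linker histone H1, 18 encode H2A, 18 encode H2B, 12 encode H3 and 13 encode H4. The other 3 entries with such a symbol are annotated as pseudogenes and were left out.

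RNA came from the nuclear fraction (nucleoplasmic in one label) of bone marrow-derived macrophages, primary phagocytes grown from the marrow of C57BL/6J mice. The cells were treated for 12 h with Lipid A (100 ng/ml), which is the portion of lipopolysaccharide of bacteria sensed through Toll-like receptor 4, were kept for 12 h after washout, and were given 100 ng/ml Lipid A again for 20 min. Total RNA was sequenced after depletion of ribosomal RNA in 2 libraries of this 1 group, labelled biological replicates 2 and 1. They started from 500 ng of RNA in replicate 2 and from 1 µg in replicate 1, carry the same donor label, and have no untreated cells beside them, so the input amount and the replicate cannot be told apart and nothing can be said of a response to Lipid A. No test between single libraries is possible, and every difference below is a description of these libraries.

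Most cluster histone genes are switched on in S phase, when new DNA needs new nucleosomes. Their transcripts end in a stem-loop that the protein SLBP binds, just upstream of the cut, and carry no poly(A) tail in this form, which is why methods that select poly(A) miss them and ribosomal depletion does not. Some of the genes can also make longer, polyadenylated transcripts that run past the stem-loop, a form known from differentiated cells. H2A-H2B and H3-H4 pairs build the nucleosome core, and H1 binds the DNA between cores.

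The stem-loop is shown first, because the length of annotated sequence beyond it is used to group the genes in the results. A perfect stem of 6 base pairs, GG first and CT last, was sought around a loop of 4 bases starting with TT. It was found in the coding transcripts of 44 of the 67 genes, in GENCODE M21 sequence of mm10. Only the middle bases of the stem could vary, so a hairpin of another form counts as not found. The hairpin is in capitals and the flanks, 5 bases on each side, are in lower case. Hist3h2a, Hist1h1c and Hist1h2bb are given for the forms that H1, H2A, H2B and H3 genes carry. Hist2h2ac has a form found in no other member, and the last 3 genes have the H4 forms.
Hist3h2a (H2A): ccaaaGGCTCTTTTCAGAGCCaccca
Hist1h1c (H1): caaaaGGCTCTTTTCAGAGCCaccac
Hist1h2bb (H2B): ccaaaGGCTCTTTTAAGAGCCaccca
Hist2h2ac (H2A): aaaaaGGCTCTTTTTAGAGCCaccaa
Hist1h4c (H4): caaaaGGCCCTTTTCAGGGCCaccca
Hist1h4i (H4): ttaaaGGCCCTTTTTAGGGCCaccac
Hist1h4b (H4): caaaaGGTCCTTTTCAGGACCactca

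The stem differed by type. All 11 H4 genes with a hairpin had a stem opening with GGCCCT or GGTCCT, and all 33 hairpins of the other types (4 H1, 11 H2A, 10 H2B and 8 H3 genes) opened with GGCTCT. The GG and the last CT of these stems were set by the search. The form of Hist3h2a and Hist1h1c was carried by 26 genes, that of Hist1h2bb by 6 genes, that of Hist1h4c by 7, and those of Hist1h4i and Hist1h4b by 2 genes each. Hairpins of this pattern were present in 63.9% of the 72 coding transcripts of the cluster genes and in 0.10% of all 58797 coding transcripts. Outside the clusters 7 genes held one, among them H2afx, which encodes the H2A variant of DNA damage foci, and Trim17, whose transcripts share the exon of Hist3h2a.

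Annotated transcript ends fell into 3 classes, defined after the values were seen and given for the coding transcript with the highest mean TPM of each gene. An extended transcript, running over 100 bases past the hairpin or, where none was found, with over 100 bases after the stop codon, was annotated for 26 genes. The transcript ended within 100 bases of the hairpin in 21 genes, and in 20 genes no hairpin was found and the annotation held at most 100 bases after the stop codon, in most of them none. The poly(A) signal AATAAA lay in the last 50 bases of 12 of the 26 extended transcripts and of none of the other 41. H1 had 4 extended transcripts and 2 short ones without a hairpin, and H4 had 7 extended, 5 ending at the hairpin and 1 short without it. In H2A the counts were 3 extended, 8 at the hairpin and 7 short without it, in H2B 7, 5 and 6, and in H3 5, 3 and 4.

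Depth was 17739520 expected counts over all genes for replicate 2, against 21954179 for replicate 1. Of the macrophage markers, all 8 were at 1 TPM or more in both libraries (Lyz2 at 1590 TPM in replicate 2 against 1231 in replicate 1), while markers of neutrophils reached 1 TPM for 1 of 6 genes (S100a9, at 1.83 TPM in replicate 2 beside 1.00 in replicate 1) and those of lymphoid, erythroid and progenitor, and stromal cells for 0 of 5, 0 of 6 and 0 of 4. The libraries were not 1 library deposited more than once, since the chi-square of their counts over 14355 genes was 91.2 per degree of freedom. TPM (read counts divided by effective length and scaled to 1000000 over all entries) was dominated by 1 short nuclear RNA, the transcription regulator Rn7sk, at 268532 TPM in replicate 2 against 269080 in replicate 1.

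Cluster histone RNA was a small share of the nuclear RNA sequenced. The 67 genes took 4694 expected counts in replicate 2, 0.0265% of the library with a 95% Wilson interval of 0.0257 to 0.0272%. In replicate 1 they took 9674 counts, 0.0441% with an interval of 0.0432 to 0.0450%. Intervals cover counting error only. The summed level was 284 TPM in replicate 2 beside 498 in replicate 1 (mean 391 ± 151, SD, n = 2). In these tables both the share and the summed TPM were lower in replicate 2 than in replicate 1. A second deposited table of each library has its own estimated counts and TPM. There the share was again lower, at 0.0251% in replicate 2 against 0.0372% in replicate 1, but the summed TPM was higher, at 178 against 121. The sums of all 5 types were higher there too. The TPM of all protein-coding genes differed by a larger factor in that table, at 236260 in replicate 2 against 75973 in replicate 1. In the gene tables it was 335012 in replicate 2 against 254421 in replicate 1. In nuclear RNA from a bulk of cells, fewer cells in S phase and less histone RNA in each cell cannot be told apart.

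H2A and H4 genes had the highest summed levels, H2B followed, and H1 and H3 were lowest. H2A genes summed to 104 TPM in replicate 2 against 185 in replicate 1 (144 ± 56.9, SD, n = 2), and H4 genes to 92.9 TPM in replicate 2 beside 185 in replicate 1 (139 ± 64.9). H2B genes summed to 35.8 TPM in replicate 2 against 70.6 in replicate 1 (53.2 ± 24.6). H1 genes summed to 31.1 TPM in replicate 2 beside 37.1 in replicate 1 (34.1 ± 4.24), and H3 genes to 20.4 TPM in replicate 2 against 21.4 in replicate 1 (20.9 ± 0.728). H4 and H2A changed places between the libraries and lay within each other's SD. Both were above H2B in each library, and their means exceeded its mean by more than any of these SDs. H2B and H1 kept their order in both libraries, but their means differed by less than the SD of H2B. H3 was below H1 in both libraries by more than either SD.

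**Figure D1:**
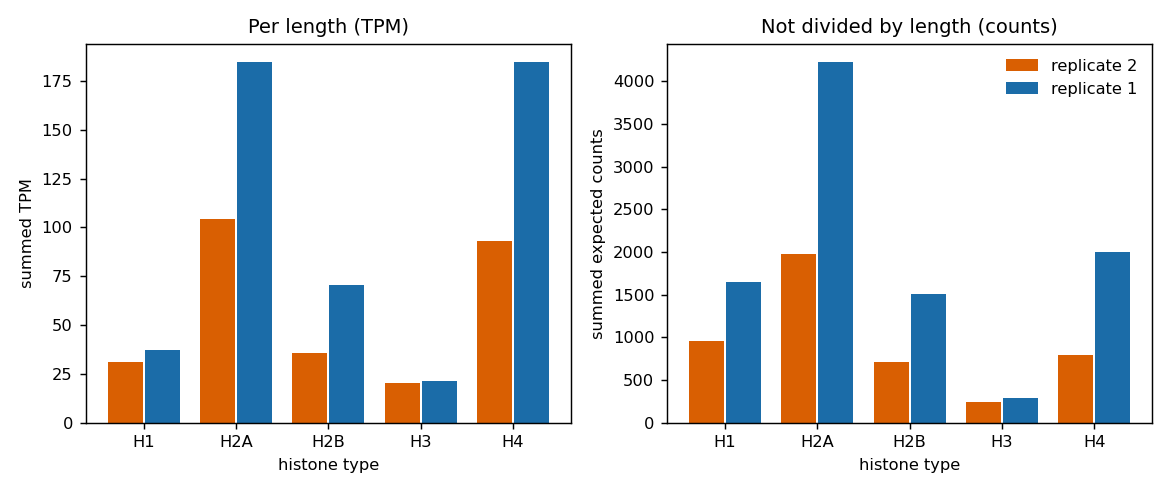
Summed TPM (left) and summed expected counts (right) of the genes of each histone type, with 1 bar per library, replicate 2 left of replicate 1. H4 and H2A are the tallest pairs of bars in TPM, while H2A holds more counts than any other type and H3 the fewest in both libraries.

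Read counts, which are not divided by length, gave another order. H2A took 1978 counts in replicate 2 and 4228 in replicate 1, 42.1% and 43.7% of all histone counts in those libraries. H4 took 17.0% of them in replicate 2 and 20.7% in replicate 1, and H1 took 20.4% in replicate 2 and 17.1% in replicate 1, so these types changed places. H2B took 15.2% in replicate 2 and 15.6% in replicate 1, and H3 took 5.28% in replicate 2 and 2.95% in replicate 1. The annotated transcripts had a median of 1236 bases in H1 and between 481 and 625 bases in the other types, so a count of H1 reads weighs less in TPM. Effective lengths were shorter still, with a median of 321 bases in replicate 2 and 327 bases in replicate 1 over all 67 genes.

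At 1 TPM or more in both libraries stood 44 of the 67 genes, beside 43.7% of all 22028 protein-coding genes. H4 was the type in which every gene passed, 13 of 13, with 5 of 6 in H1, 10 of 18 in H2A, 10 of 18 in H2B and 6 of 12 in H3. A mean of 10 TPM or more was reached by 10 genes, 5 of them in H4, 3 in H2A and 1 each in H1 and H2B. The genes listed at 0 counts in both libraries were Hist1h2aa, Hist1h2ba and Hist1h2ao, beside 34.5% of all protein-coding genes. The first pair, head-to-head neighbours known as testis forms, had no read assigned, which at 3 counts allows up to 0.169 CPM (counts scaled to a library of 1000000) in replicate 2 and 0.137 in replicate 1. Hist1h2ao shares its whole coding sequence with Hist1h2ap and is taken up with the copies.

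**Figure D2:**
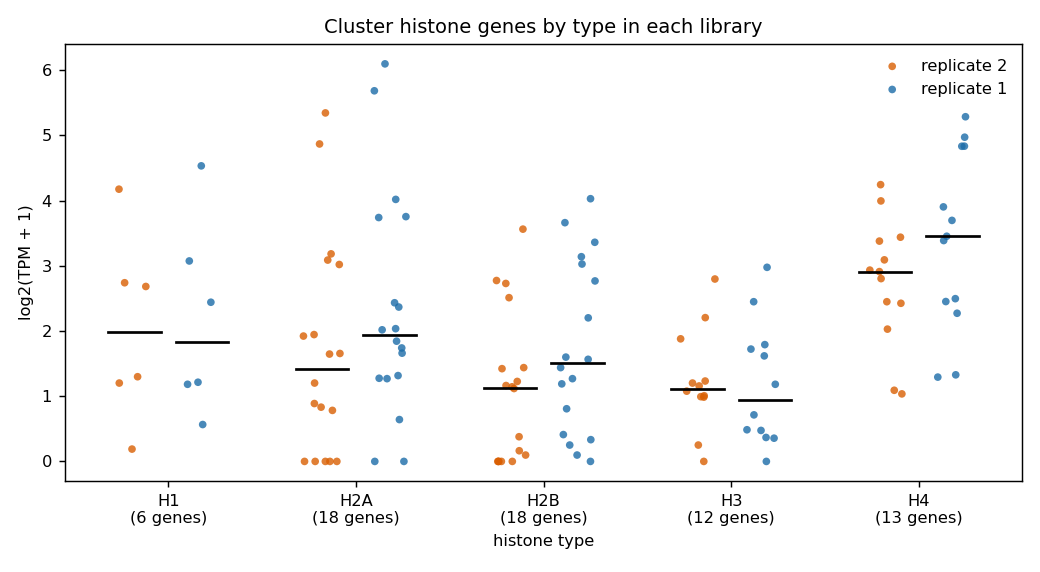
Level of each of the 67 genes, as log2(TPM + 1), by histone type in replicate 2 (left of each pair) and replicate 1 (right), with a black bar at the median of the type. Every H4 gene lies above 1, while H2A, H2B and H3 each have genes at 0 in replicate 2.

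Among H1 genes, Hist1h1c led. This gene, on chromosome 13 at 23738808 to 23740367 in mm10, has 1 exon and a transcript of 1560 bases that runs 840 bases past the hairpin, with AATAAA near its end. It had 17.1 TPM in replicate 2 beside 22.1 in replicate 1 (19.6 ± 3.59, SD, n = 2), from 469 and 893 counts. Hist1h1e had 5.68 TPM in replicate 2 against 7.42 in replicate 1, but its exon overlaps Hist1h2be on the same strand, so part of its reads could belong to that H2B gene. Hist1h1a had 5.42 TPM in replicate 2 beside 4.43 in replicate 1, and Hist1h1b had 1.30 TPM in replicate 2 against 1.32 in replicate 1. Hist1h1d shows how length weighs: 216 counts in replicate 2 and 275 in replicate 1 became 1.46 TPM and 1.27 TPM over an annotated transcript of 7425 bases. Hist1h1t, the testis H1 gene, had 2 counts in replicate 2 and 10 in replicate 1, or 0.14 TPM and 0.48 TPM.

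Among H2A genes, Hist3h2a and Hist2h2aa2 stood apart from the rest. Hist3h2a, on chromosome 11 at 58954685 to 58956830, took more counts than any other member: 1564 in replicate 2 and 2916 in replicate 1, or 33.3% and 30.1% of all cluster histone counts. Its level was 39.6 TPM in replicate 2 beside 50.4 in replicate 1 (45.0 ± 7.62, SD, n = 2). Its annotated transcript of 2146 bases runs 1643 bases past the hairpin printed above and has AATAAA near its end, and no window of 100 bases of it occurs in another cluster gene. It does share its exon with Trim17, a ubiquitin ligase gene on the same strand, which took 154 counts in replicate 2 and 131 in replicate 1, and the posterior SD of the Hist3h2a count given by the authors was 2.98 reads in replicate 2 and 9.11 in replicate 1.

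Hist2h2aa2, of 528 bases on chromosome 3 at 96239749 to 96240276, had 28.2 TPM in replicate 2 against 67.4 in replicate 1 (47.8 ± 27.7, SD, n = 2), from 179 and 637 counts. It led all members in replicate 1 and was second to Hist3h2a in replicate 2. Its copy Hist2h2aa1 had 7.11 TPM in replicate 2 beside 12.5 in replicate 1, and its neighbour Hist2h2ac had 8.08 TPM in replicate 2 against 15.2 in replicate 1. Several noncoding entries overlap these genes. Gm20634, a processed transcript on the strand of Hist2h2aa1, took 329 counts in replicate 2 and 629 in replicate 1, more than Hist2h2aa1 itself with 53.6 and 140. Gm20632, opposite to Hist2h2aa2, took 201 counts in replicate 2 and 306 in replicate 1. The sources used here do not say whether counting used strand, so reads of the opposite entries and of the histone genes cannot be told apart.

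Of the Hist1 H2A genes, 2 had over 5 TPM in a library. Hist1h2ap had 2.85 TPM in replicate 2 beside 12.4 in replicate 1, whereas Hist1h2ak had 7.5 TPM in replicate 2 against 4.4 in replicate 1. The next were Hist1h2ae, at 2.13 TPM in replicate 2 beside 3.05 in replicate 1, and Hist1h2ab, at 0.85 TPM in replicate 2 against 4.16 in replicate 1. These low levels rest on few reads, 21.2 and 44.9 counts for Hist1h2ae and 4.43 and 32.5 for Hist1h2ab. Hist1h2an had 2.79 TPM in replicate 2 beside 1.49 in replicate 1, Hist1h2af 2.15 TPM in replicate 2 against 1.42 in replicate 1, and Hist2h2ab 1.30 TPM in replicate 2 beside 2.16 in replicate 1. Hist1h2ac, whose annotated transcript is 2482 bases long, had 0.78 TPM in replicate 2 against 1.41 in replicate 1 from 36.2 and 96.0 counts. Hist1h2ai, Hist1h2ad and Hist1h2ag were each listed at 0 in replicate 2, beside 3.10, 2.59 and 2.34 TPM in replicate 1. Hist1h2ah had 0.72 TPM in replicate 2 beside 0.56 in replicate 1. Of the 18 H2A genes, 17 lie opposite an entry annotated as a miRNA. Those entries had at most 1.76 counts.

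Among H2B genes, the highest levels belonged to genes with extended transcripts, apart from Hist2h2bb. Hist1h2bc had 10.8 TPM in replicate 2 against 15.3 in replicate 1 (13.1 ± 3.19, SD, n = 2), from 208 and 433 counts over an annotated transcript of 1156 bases in 2 exons. Hist2h2be, with 2620 bases and AATAAA near its end, took the most reads of this type, 287 counts in replicate 2 and 515 in replicate 1, at 5.84 TPM and 7.15 TPM. No 100-base window of Hist2h2be occurs in another cluster gene. Hist2h2bb had 5.63 TPM in replicate 2 beside 11.7 in replicate 1, and Hist1h2bg had 4.70 TPM in replicate 2 against 9.27 in replicate 1. Hist2h2bb lies opposite Gm20628, an antisense entry with 88.6 counts in replicate 2 and 185 in replicate 1, more than its own 18.9 and 59.4.

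The remaining H2B genes were lower, and several were listed at 0 in replicate 2. Hist1h2bj had 1.34 TPM in replicate 2 beside 7.81 in replicate 1, and Hist1h2bb had 1.68 TPM in replicate 2 against 5.81 in replicate 1. Hist1h2bk was listed at 0 in replicate 2 and had 3.60 TPM in replicate 1, and Hist1h2bn was listed at 0 in replicate 2 and had 2.03 TPM in replicate 1. Hist1h2be had 1.71 TPM in replicate 2 beside 1.96 in replicate 1, of which a noncoding transcript of 2099 bases had 1.14 TPM in replicate 2 against 0.80 in replicate 1. Hist1h2bf had 1.17 TPM in replicate 2 beside 1.28 in replicate 1. The copies Hist1h2bq and Hist1h2br had 1.21 and 1.24 TPM in replicate 2 and 1.71 and 1.41 TPM in replicate 1. Most of their counts lay on transcripts of 2015 and 2197 bases annotated as targets of nonsense-mediated decay. In replicate 2 these had 28.0 of 29.5 and 31.8 of 33.4 counts, and in replicate 1 23.8 of 45.0 and 41.9 of 45.5. Hist1h2bm, Hist1h2bl, Hist3h2ba, Hist1h2bp and Hist1h2bh stayed between 0 and 0.30 TPM in replicate 2 and between 0.07 and 0.75 TPM in replicate 1.

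H3 was low throughout, and no H3 gene reached 10 TPM. Hist2h3b had 5.95 TPM in replicate 2 against 6.87 in replicate 1 (6.41 ± 0.651, SD, n = 2), from 32.9 and 56.8 counts. Hist1h3a had 3.61 TPM in replicate 2 beside 4.46 in replicate 1. Hist1h3e had 1.11 TPM in replicate 2 against 2.46 in replicate 1, and Hist1h3d had 1.23 TPM in replicate 2 beside 2.30 in replicate 1. The others at a mean of 1 TPM were Hist1h3i, with 1.35 TPM in replicate 2 against 2.07 in replicate 1, Hist2h3c2, with 1.01 TPM in replicate 2 beside 1.27 in replicate 1, and Hist2h3c1. Hist2h3c1 had 88.2 counts (2.68 TPM) in replicate 2 and 0 in replicate 1, with posterior SDs of 25.5 reads in replicate 2 and 10.2 in replicate 1, and its exon lies inside Gm20634 on the same strand. Hist1h3c, Hist1h3b and Hist1h3f had 1.30, 0.99 and 0.98 TPM in replicate 2 and 0.39, 0.40 and 0.29 TPM in replicate 1. Hist1h3h and Hist1h3g had at most 0.19 TPM in replicate 2 and at most 0.64 TPM in replicate 1.

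Every H4 gene stood above 1 TPM in each library. Hist1h4m and Hist1h4n share 1 coding sequence, and their transcripts end 3 and 31 bases past the hairpin. Hist1h4m had 14.9 TPM in replicate 2 against 38 in replicate 1 (26.5 ± 16.3, SD, n = 2), and Hist1h4n had 17.9 TPM in replicate 2 beside 27.5 in replicate 1 (22.7 ± 6.75). Hist1h4i, on chromosome 13 at 22040636 to 22041362, had 9.84 TPM in replicate 2 against 27.5 in replicate 1 (18.7 ± 12.5), and with 103 and 424 counts it took the most reads of this type over both libraries. Hist1h4k had 5.98 TPM in replicate 2 beside 30.4 in replicate 1 (18.2 ± 17.3), but over an annotated transcript of 312 bases, the coding sequence alone, whose effective length was 98.2 bases in replicate 2 and 106 bases in replicate 1. Its TPM rests on 12.0 and 95.9 counts, so reads of this gene weigh more in TPM than those of any other member.

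The other H4 genes had lower mean levels, although 4 of them were above Hist1h4k in replicate 2. Hist1h4c had 9.40 TPM in replicate 2 against 14 in replicate 1, and Hist1h4h had 6.52 TPM in replicate 2 beside 12.0 in replicate 1. Hist1h4b had 7.52 TPM in replicate 2 against 9.95 in replicate 1, and Hist1h4d had 6.64 TPM in replicate 2 beside 9.46 in replicate 1. The closest to equal were Hist2h4, with 4.46 TPM in replicate 2 against 4.64 in replicate 1, and Hist1h4f, with 4.37 TPM in replicate 2 beside 4.47 in replicate 1. Hist1h4j had 3.08 TPM in replicate 2 against 3.83 in replicate 1, Hist4h4 1.13 TPM in replicate 2 beside 1.51 in replicate 1, and Hist1h4a 1.05 TPM in replicate 2 against 1.45 in replicate 1. Hist4h4 is the single member on chromosome 6, and its transcript is 2863 bases long.

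**Figure D3:**
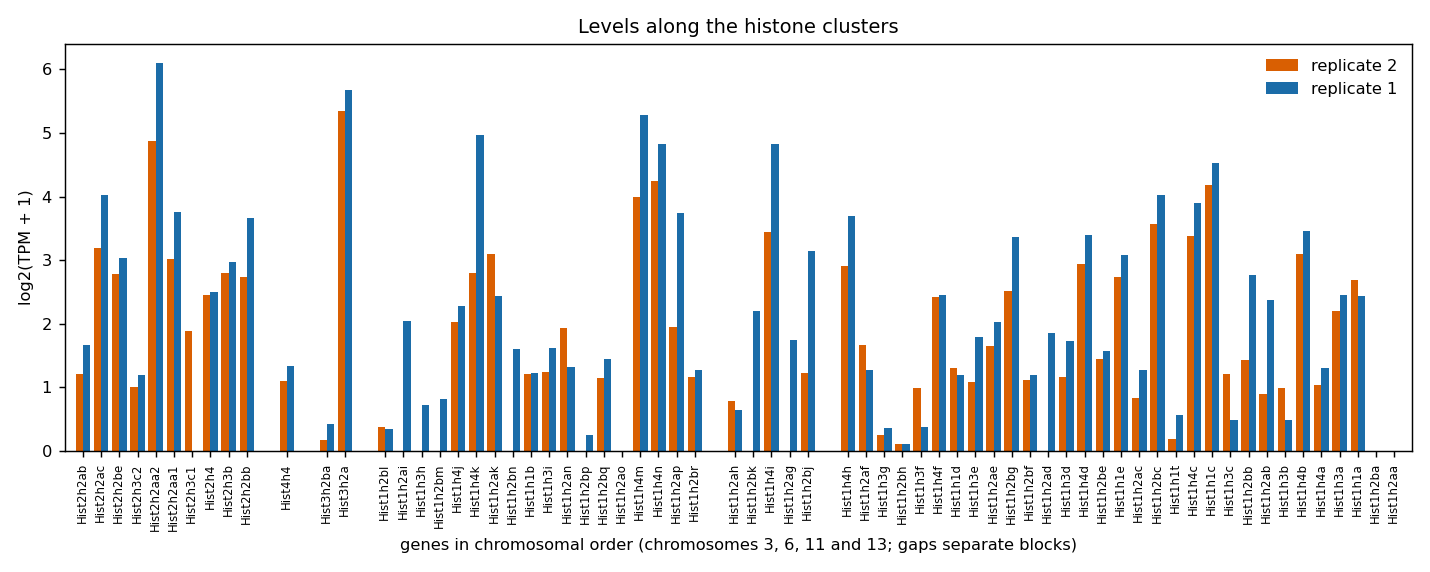
Level of each gene as log2(TPM + 1) in chromosomal order, replicate 2 left of replicate 1, with gaps between blocks of neighbouring genes. Genes at 0 or near it stand next to genes with the highest levels, and in the 5-gene block from Hist1h2ah to Hist1h2bj the replicate 2 bars are lower than the replicate 1 bars, except for Hist1h2ah.

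Neighbouring genes differed in level. The 10 Hist2 genes of chromosome 3 summed to 70.3 TPM in replicate 2 beside 129 in replicate 1. The 54 Hist1 genes of chromosome 13 lie in 3 blocks, grouped after the values were seen, of which the first (18 genes) summed to 60.5 TPM in replicate 2 against 131 in replicate 1. The last (31 genes) summed to 101 TPM in replicate 2 beside 144 in replicate 1. Between them, the block of 5 genes from 22035164 to 22043676 summed to 11.9 TPM in replicate 2 against 41.8 in replicate 1. In 12 head-to-head H2A and H2B pairs, whose starts lie 175 to 305 bases apart, the mean levels of the partners had a Spearman correlation of 0.098 and a Pearson correlation of 0.24 across pairs, given as a description since the pairs share libraries and reads. Hist1h2ac had 0.78 TPM in replicate 2 and 1.41 in replicate 1, where its partner Hist1h2bc had 10.8 and 15.3 TPM. The reverse held for Hist1h2ap, at 2.85 TPM in replicate 2 against 12.4 in replicate 1, beside Hist1h2br at 1.24 and 1.41 TPM.

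Levels differed between the libraries in 1 direction for nearly all members. The log2 ratio of replicate 2 over replicate 1, taken on TPM + 1 and centred on its median over 12952 genes averaging at least 1 TPM (that median was 0.29), was below 0 for 48 of the 52 members with such an average. Its median was -0.70 over those members, and without centring it was -0.41 with 46 members below 0. Over 2-fold lower in replicate 2 were 19 of the 52, beside 4.51% of those 12952 genes. Of the 52, 7 passed that mean through replicate 1 alone and 1 through replicate 2 alone, and these had to differ. Among the 44 members at 1 TPM or more in both libraries, 12 were over 2-fold lower in replicate 2, beside 3.0% of all such genes (353 of 11776), with a median of -0.63. In the second table, the centred ratio had a median of -0.68 over the 52 members, but there the median of all these genes was 1.19, and without centring the members' median was 0.51, with 10 of 52 below 0.

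The medians by type were -0.30 in H1, -1.02 in H2A, -0.95 in H2B, -0.53 in H3 and -0.74 in H4. Of these, 5 of the 15 H2A genes and 2 of the 12 H2B genes passed through replicate 1 alone. Over members at 1 TPM or more in both libraries the medians were -0.30 in H1, -0.70 in H2A, -0.67 in H2B, -0.60 in H3 and -0.74 in H4. Of the members with 100 or more counts over both libraries, the 5 lowest ratios belonged to Hist1h4k at -2.46, Hist1h2ap at -2.08, Hist1h4i at -1.68, Hist1h4m at -1.58 and Hist2h2aa2 at -1.52. The 5 highest of them were all below 0, namely Hist1h1a at -0.05, Hist1h1d at -0.17, Hist2h4 at -0.34, Hist1h2be at -0.42 and Hist4h4 at -0.53. Extended annotated transcripts, the largest class with 26 of the 67 genes, were present at both ends of this ranking. Hist1h4i among the 5 lowest has one, as do all of the 5 highest except Hist1h1a. The single member over 2-fold higher in replicate 2 was Hist2h3c1 at 1.59, the gene with the posterior SD of 25.5 reads.

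Transcripts that end at the hairpin had the lowest median ratio of the 3 classes. It was -1.52, and 17 of 17 were lower in replicate 2, 12 of them over 2-fold, but 4 of the 17 passed through replicate 1 alone. Extended transcripts had a median of -0.63, with 20 of 21 lower and 3 over 2-fold, and the short ones without a hairpin had a median of -0.53, with 11 of 14 lower and 4 over 2-fold. Ratios and counts are those of whole genes, each placed by its chosen coding transcript. Hist1h2bq and Hist1h2br are among the short ones, although most of their counts lay on longer transcripts. Over members at 1 TPM or more in both libraries the medians were -1.07 for 13 genes ending at the hairpin, -0.63 for 19 extended and -0.43 for 12 short ones. Of those 13 genes, 8 were over 2-fold lower, beside 3.0% of all genes at that level in both libraries. In library-scaled counts (CPM), not divided by length, the medians were -1.04 for ends at the hairpin, -0.67 for extended transcripts and -0.32 for the short ones without a hairpin. In the other deposited table they were -0.86, -0.59 and -0.73 in the same order, so the gap was smaller there. Genes with an extended transcript held 82.1% of the histone counts in replicate 2 and 75.5% in replicate 1, but 46.7% and 38% of the histone TPM. Those with a transcript ending at the hairpin held 12.3% of the counts in replicate 2 and 19.4% in replicate 1, and 38.2% and 46.8% of the TPM.

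Members and other protein-coding genes under 1000 bases had lower median ratios than longer ones. Members were placed by the length of their chosen coding transcript, so Hist1h2bq and Hist1h2br count as under 500 bases. Other genes were placed by their listed gene length, averaged over the libraries, which is an unlike measure. The 23 members under 500 bases had a median of -0.88, beside -0.56 for 52 other protein-coding genes in that class, with quartiles of -1.03 and -0.11. From 500 to under 1000 bases the medians were -1.0 for 15 members and -0.27 for 783 other protein-coding genes. From 1000 to under 2000 bases they were -0.63 for 8 members and -0.14 for 2909 other protein-coding genes. At 2000 bases or more they were -0.53 for 6 members and 0.04 for 6254 other protein-coding genes. Over other genes of all types the medians lay closer together, at -0.11, -0.12, -0.09 and 0.07 from the shortest class to the longest. Of the 23 members under 500 bases, 5 passed through replicate 1 alone. Among genes at 1 TPM or more in both libraries, the median under 500 bases was -0.66 for 18 members, near the -0.56 of 42 other protein-coding genes. From 500 to under 1000 bases it was -0.91 for 14 members and -0.28 for 726 other protein-coding genes. Over the 52 members the ratio and the length had a Spearman correlation of 0.26 and a Pearson correlation, on log10 length, of 0.37, as a description over genes of the same libraries. The part of length, of the fragment size range of 250 to 400 bases and of the input amount in the result was not tested.

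**Figure D4:**
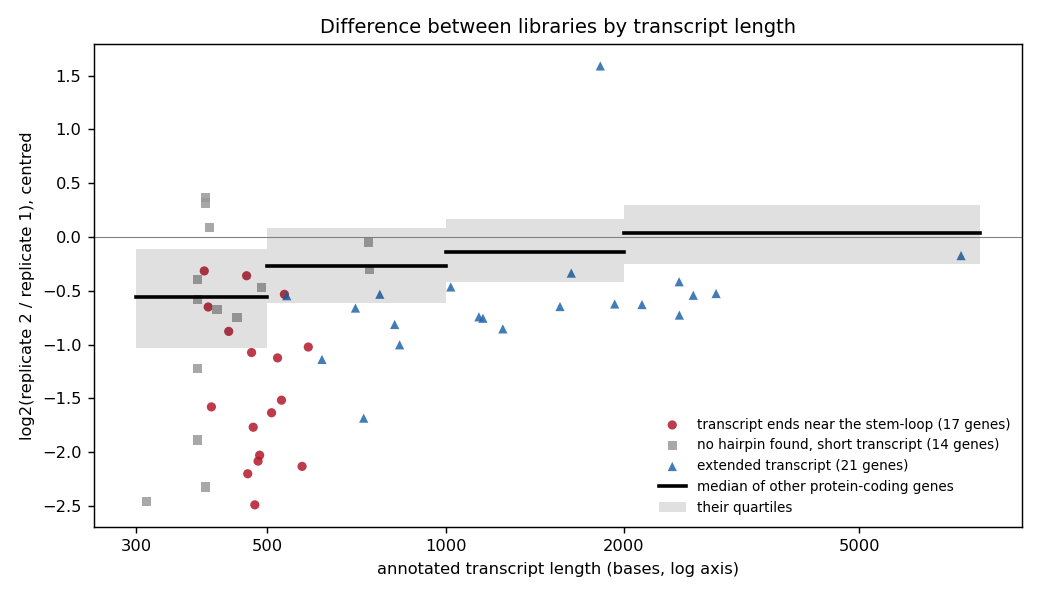
Log2 ratio of replicate 2 over replicate 1 (TPM + 1, centred) of the 52 members averaging at least 1 TPM against annotated transcript length on a log axis, by the end of the transcript, with the median (black line) and quartiles (grey) of other protein-coding genes in each length class. Members are placed by their chosen coding transcript and other genes by their listed gene length. Most members lie below the black line at every length, and the lowest ratios belong to short transcripts.

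Near-identical copies limit what can be said of single genes. The coding sequences of pairs of equal length were identical at a median of 96.4% of positions in H2A, 97.1% in H2B, 97.6% in H3 and 93.9% in H4. In 24 of the 67 genes at least 50% of the 100-base windows of the transcript occurred in another cluster gene, in 32 genes fewer did, and in 11 genes none did. The 24 genes held 11.6% of the histone counts in replicate 2 and 17.8% in replicate 1. Most counts thus fell on genes that share fewer windows with other cluster genes. The 11 genes with no window shared within the clusters, Hist3h2a among them, held 48.1% of the counts in replicate 2 and 43.1% in replicate 1. Entries outside the clusters are left out of these shares. With them included, 29.8% of the windows of Hist3h2a and 100% of those of Hist2h2bb, also among the 11, were shared. Of the 12 genes for which the authors' posterior SD of the count was above 5 reads in a library, 10 share at least 50% of their windows. The others are Hist3h2a, which overlaps Trim17, and Hist2h3c1, inside Gm20634.

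**Figure D5:**
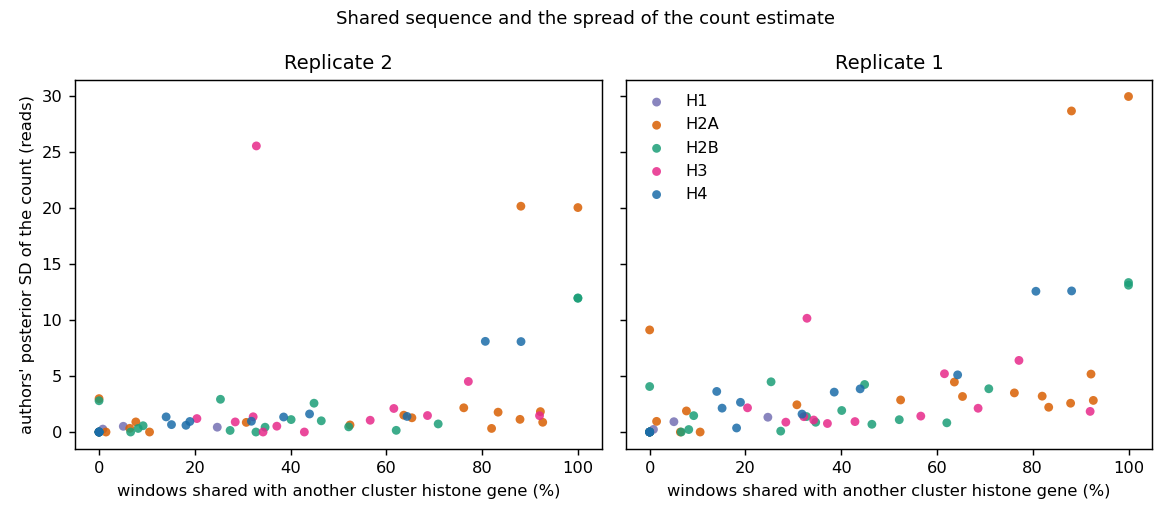
The authors' posterior SD of the expected count, in reads, of each gene against the share of its 100-base windows found in another cluster histone gene, in replicate 2 (left) and replicate 1 (right), coloured by histone type. Hist2h2aa1 and Hist2h2aa2 have the widest spread at 88.1% and 100% of windows in replicate 1, and Hist2h3c1, at 32.9%, has it in replicate 2.

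For 4 pairs of genes the coding sequences were identical, so the sums of the pairs are given beside their members. Hist2h2aa1 and Hist2h2aa2 together had 35.3 TPM in replicate 2 beside 79.9 in replicate 1, and Hist1h4m and Hist1h4n together had 32.9 TPM in replicate 2 against 65.5 in replicate 1. Hist1h2ao and Hist1h2ap together had 2.85 TPM in replicate 2 beside 12.4 in replicate 1, all of it assigned to Hist1h2ap in the gene tables. The pair Hist1h2bq and Hist1h2br had 2.45 TPM in replicate 2 against 3.12 in replicate 1. How the pairs were divided depended on the table: Hist2h2aa1 received 23.0% of its pair's counts in replicate 2 and 18% in replicate 1 in the gene tables, but 6.37% and 32.1% in the other deposited table. By count, the sums of all 4 pairs were lower in replicate 2 than in replicate 1 in both tables. By the TPM values of the second table, however, 3 of the 4 sums were higher in replicate 2, at 19.8 against 16.3 for Hist2h2aa1 and Hist2h2aa2, 14.7 against 12.9 for Hist1h4m and Hist1h4n, and 1.58 against 0.580 for Hist1h2bq and Hist1h2br. The TPM values of that table were higher in replicate 2 in general, with a median log2 ratio, not centred, of 1.19 over the 12952 genes averaging at least 1 TPM.

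The second transcript table held more counts. Over 14347 genes with 10 or more counts in each library its counts were a median of 1.78 times those of the gene table in replicate 2 and 1.30 times in replicate 1, and over 38 cluster genes 1.59 times in replicate 2 and 1.18 times in replicate 1. Among members with 100 or more counts over both libraries in either table, 4 had sums over 2-fold higher there. The share of all genes past that line was not counted. Hist1h4k had 82.0 counts in replicate 2 and 242 in replicate 1 there, beside 12.0 and 95.9 in the gene table, and Hist4h4 had 251 and 173 beside 61 and 120. Hist1h2bg had 131 counts in replicate 2 and 196 in replicate 1 there, beside 38.5 and 113, and Hist1h2bq had 95.4 and 67.0 beside 29.5 and 45.0. Hist4h4 and Hist1h2bq thus had more counts in replicate 2 in that table, where the gene tables had fewer. The order of types by summed TPM was the same in both tables in each library.

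The RNAs of proteins that act on these genes and their products were present. Of 20 genes for histone mRNA 3′ end processing, 18 had 1 TPM or more in both libraries, and Slbp, which encodes the stem-loop binding protein, had 12.8 TPM in replicate 2 beside 10.1 in replicate 1 (11.4 ± 1.92, SD, n = 2). Npat, whose product activates histone genes in S phase, had 4.89 TPM in replicate 2 against 2.33 in replicate 1. The highest of the list were Srrt at 62.2 ± 12.5 TPM, Wdr33 at 24.5 ± 8.53 TPM and Fip1l1 at 23.5 ± 5.48 TPM, and Lsm11 and Zfp473 stayed under 1. The list is wider than its name, since Npat acts on transcription and Wdr33 and Fip1l1 are factors of general polyadenylation. The median centred ratio of the 18 genes was 0.02, with none over 2-fold lower in replicate 2. Of 20 S phase and proliferation genes, 13 had 1 TPM in both libraries, led by Pcna at 29.6 ± 8.91 TPM, Cdk2 at 9.52 ± 0.990 TPM and Mcm6 at 6.08 ± 0.0424 TPM. Mki67, a marker of cycling cells, had 4.55 TPM in replicate 2 beside 3.97 in replicate 1. Over the 18 genes of this list averaging at least 1 TPM the median ratio was -0.03, with 10 below 0. Of these, 1 gene was over 2-fold lower in replicate 2 (Cdt1, a factor of replication licensing, at -1.34). Ccne2, Ccna2, Ccnb1, Tyms and Cdc6 passed that mean through replicate 2 alone, and their ratios were all above 0.

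Genes of replacement and variant histones were set beside the cluster genes. Replacement histones such as H3.3 are also made outside S phase, from polyadenylated RNAs, but the list includes H2afx, which holds the hairpin. H3f3b, which encodes H3.3, had 324 TPM in replicate 2 against 282 in replicate 1 (303 ± 29.6, SD, n = 2), so in replicate 2 this 1 gene exceeded the 284 TPM of all 67 cluster genes, and in replicate 1 it did not. The next were H2afy at 47.5 ± 7.51 TPM and H3f3a at 32.7 ± 0.431 TPM, and H3f3a by itself was above the 20.9 TPM that all 12 cluster H3 genes reached together. Of the 14 replacement and variant genes, 9 had 1 TPM in both libraries, with a median ratio of -0.31 and none over 2-fold lower in replicate 2. Of these 9, 7 were below 0, but Cenpa was over 2-fold higher, at 1.48, with 6.07 TPM in replicate 2 against 1.07 in replicate 1. Of 19 histone chaperone genes 18 had 1 TPM in both libraries, led by Daxx at 108 ± 49.0 TPM, Atrx at 92.5 ± 21.3 TPM and Cabin1 at 21 ± 1.92 TPM, with a median ratio of -0.03 and 1 over 2-fold lower in replicate 2, Daxx at -1.24.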

How the data were processed

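Per the labels and the file headers, the authors sequenced ribosomal RNA-depleted nuclear RNA in 2 libraries and deposited, for each, gene and transcript tables on mm10 with GENCODE M21 annotation. The deposited tables give expected counts (estimated reads, not whole numbers), TPM, the percent of each transcript in its gene and scores for the error of the estimate (posterior SD of the count and bounds of TPM), per the file headers. A second transcript table per library, per the file headers, gives estimated counts and TPM. The sources used here do not name the aligner, the quantification tools or their versions, or say whether strand was used. Biological replicate numbers come from the labels. Nothing says that the cells came from separate animals, so the spread between the libraries may be technical.

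Members were taken by symbol and transcript type and joined by gene ID. The members, the gene lists and the groupings were chosen with earlier results of these data known, and the gene lists describe context only. Spike-in entries (0.434% of counts in replicate 2 and 0.581% in replicate 1) and entries without a gene name (54 and 24 counts) were left out. TPM rests on the authors' effective lengths, which in short genes strongly raise the value of a read. The log2 ratio of replicate 2 over replicate 1 was computed on TPM + 1 and centred on the median of all genes averaging at least 1 TPM, and 2-fold was the threshold for counting. Alternatives were a pseudocount of 0.1 or 5, no filter, 10 counts in each library, no centring, CPM (library-scaled counts), TMM-scaled counts (edgeR 4.0.16, R 4.3.3), TPM rescaled over protein-coding genes, the second table, all 70 matching entries and each library alone. The calculation of ratios was tested on simulated data. Named with values were members averaging at least 1 TPM, those listed at 0 in both libraries, those with the largest ratios or with differing tables among members with 100 or more counts, and the top 3 of each context list. No member had a pair of transcripts with a mean of 1 TPM or more. Shared sequence was counted in windows of 100 bases over all transcripts of the annotation. The classes of shared windows use only those found in another cluster gene. Identity was taken from coding sequence, as protein sequence was not used here. Promoters are from RefSeq (GRCm38.p6). Python 3.11.15 with pandas 2.3.3 and scipy 1.17.1 was used.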

Additional observations from a re-analysis of the deposited data

Results flagged for a closer look

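Signal was seen outside the values compared above for 7 entries. Of the 3 pseudogene entries with a cluster histone symbol, Hist3h2bb-ps had 2 expected counts in replicate 2 and 8 in replicate 1, the value in replicate 1 being above the 3 counts that a listing of 0 allows, while Hist1h2aj and Hist1h2al were at 0 in both libraries. The second transcript table gave more than 3 counts to some members that the gene table listed at 0. In replicate 2 these were Hist1h2ad with 30.0 counts, Hist1h2ag with 17.8, Hist1h2bn with 14.7, Hist1h2ai with 6.57, Hist1h2bk with 6.33 and Hist1h2ao with 5.26. In replicate 1 the single such gene was Hist1h2ao with 15.3 counts. Each of these 6 genes shares over 50% of its 100-base windows with other cluster genes, from 52.1% in Hist1h2bn to 92.7% in Hist1h2ao, so a listing of 0 for them cannot be told apart from reads given to a copy. The gene tables give them posterior SDs between 0.32 reads (Hist1h2ai) and 2.16 reads (Hist1h2ag) in replicate 2. With groups of 2 libraries, a comparison of 1 library with the rest of its group was not made.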

How the results depend on the processing

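By the second deposited table, 26 members stood at 1 TPM or more in both libraries, and the mean summed TPM was 12.8 for H1, 52.2 for H2A, 24.4 for H2B, 7.63 for H3 and 52.6 for H4. Rescaled over protein-coding genes it was 119 for H1, 518 for H2A, 192 for H2B, 72.6 for H3 and 501 for H4. In CPM, not divided by length, H1 had 64.6, H3 13.5 and H4 68.1. These are changes of unit or of table. The median log2 ratio stayed below 0 under each alternative that changed 1 choice and gives a ratio. It reversed to 0.51 in the second table without centring, added after seeing the data, where 1 member was over 2-fold lower. It was -0.84 with a pseudocount of 0.1, -0.42 with a pseudocount of 5, -0.48 without a filter, -0.41 without centring and -0.82 rescaled over protein-coding genes. The number of members over 2-fold lower in replicate 2 was 12 in CPM, 12 in TMM-scaled counts, 12 among members at 1 TPM or more in both libraries (a filter chosen after seeing the data), 10 with at least 10 counts in each library and 6 with a pseudocount of 5. The cause was not tested, except that the filters on 10 counts and on 1 TPM keep fewer genes. No paired analysis was possible because there is 1 group of samples.

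With 2 libraries and 1 group, no difference could be tested, and many members rest on few reads: 38 had 10 or more counts in each library. Replicate number and RNA input are confounded. The sources used here state neither strand nor read length, which bear on how reads of copies and of overlapping entries were divided. Transcript ends are those of the annotation, not measured ends, so reads past a short annotated end are not counted for that gene.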

Other observations

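The sequence before the start sites also differed by histone type. RefSeq promoters, 250 bases before to 50 after the start, were at hand for 61 of the 67 genes and were searched on both strands for TATAAA (letters of the TATA box), for CCAAT (the site of the factor NF-Y) and for ATTTGCAT (the octamer that POU factors bind, known in H2B promoters). CCAAT was present in 6 of 6 H1, 17 of 17 H2A, 16 of 16 H2B and 10 of 10 H3 promoters, but in 3 of 12 H4 promoters, beside 37.4% of all 32851 promoters in the table. The octamer was found in 7 of 17 H2A and 6 of 16 H2B promoters and in none of the 28 others, beside 1.74% of all promoters. TATAAA was present in 35 of 61 promoters, beside 13.6% of all promoters. Head-to-head H2A and H2B genes share their windows in part, so their matches are not independent. The promoters of the member with the most counts and of the H4 gene with the most counts are printed, with matches in capitals, the first holding the octamer and CCAAT and the second TATAAA alone. A match may lie anywhere in the window, and the TATAAA of Hist1h4i lies well before the start, not where a TATA box is known to lie.
Hist3h2a, chr11:58954435-58954734, GRCm38.p6, plus strand: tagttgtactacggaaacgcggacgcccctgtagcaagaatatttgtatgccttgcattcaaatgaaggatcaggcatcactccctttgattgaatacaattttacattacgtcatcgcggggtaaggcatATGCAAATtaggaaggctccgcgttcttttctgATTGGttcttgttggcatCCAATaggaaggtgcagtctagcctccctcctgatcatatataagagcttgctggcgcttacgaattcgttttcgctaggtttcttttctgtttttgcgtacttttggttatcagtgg
Hist1h4i, chr13:22041313-22041612, GRCm38.p6, minus strand: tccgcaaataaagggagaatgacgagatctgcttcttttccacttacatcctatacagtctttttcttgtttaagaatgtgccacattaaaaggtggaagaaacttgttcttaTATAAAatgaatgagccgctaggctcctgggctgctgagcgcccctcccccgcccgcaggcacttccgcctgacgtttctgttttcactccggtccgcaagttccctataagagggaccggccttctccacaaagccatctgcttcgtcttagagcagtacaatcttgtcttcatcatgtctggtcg
A match is a description of these letters, not a site in use. Both genes were lower in replicate 2 than in replicate 1, Hist3h2a with a log2 ratio of -0.63 and Hist1h4i with -1.68.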
